A study of Mus musculus with 10 samples.

Results

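NRF2, encoded by Nfe2l2, is the transcription factor that switches on antioxidant genes, and 8 genes of its pathway were followed in the chromatin of mouse Th17 cells: Nfe2l2, Keap1, Gclc, Gclm, Nqo1, Hmox1, Txnrd1 and Srxn1. A site of the ATAC-seq table was counted for one of these genes when its nearest protein-coding gene body was that gene, at most 50 kb away. This gave 28 of the 39657 sites. All 8 genes had a site: Txnrd1 had 8, Gclc 6, Nfe2l2 4, Keap1 4, Nqo1 2, Hmox1 2, Gclm 1 and Srxn1 1. Of the 28 sites, 16 lay inside a gene body and 12 outside, and each was 201 bp wide. Closeness alone does not show that a site acts on the gene.

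ATAC-seq reads where a transposase can cut chromatin, so that a high value marks open DNA. Naive CD4+ T cells came from spleen and lymph nodes of mice with floxed alleles of pyruvate dehydrogenase (PDH), the mitochondrial enzyme that makes acetyl-CoA from pyruvate. They were cultured for 3 days with anti-CD3, anti-CD28, IL-6, TGFβ and anti-IFNγ, which drive Th17 differentiation. The 4 groups were PDH fl/fl CD4-Cre cells with 10 mM sodium acetate (KO with acetate, n = 2), PDH fl/fl CD4-Cre cells without it (KO untreated, n = 3), PDH fl/fl cells with 10 mM sodium acetate (WT with acetate, n = 2) and PDH fl/fl cells without it (WT untreated, n = 3). CD4-Cre acts in the thymus at the stage when CD4 is first made, so the allele is lost before the cells are cultured. The labels do not name the floxed subunit gene, and the deletion was not checked here.

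The libraries held 3500172 to 13356560 reads in the table's sites, and a member site held 8 to 1594 reads in a library, with a median of 179.5. The values are the deposited normalised reads: each library's reads, scaled by a single factor of its own. All 8 genes listed as Th17 markers had a site, as did all 4 T cell genes, against 1 of 3 CD8 T cell genes, 3 of 6 B cell genes, 2 of 5 myeloid genes and 2 of 4 NK cell genes. Site names mark them as differential, and the table is treated here as one chosen by the authors from these libraries. Nothing in the labels says that libraries of a group came from separate animals, and p-values therefore measure the spread between these libraries. In bulk libraries, more cells with an open site and a more open site per cell cannot be told apart. Sites on mitochondrial DNA held 1.18% to 2.01% of the signal in KO untreated libraries and 0.201% to 0.658% in the others, and the part of this in the results below was not tested.

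In resting cells KEAP1 holds NRF2 in the cytoplasm and passes it to a ubiquitin ligase for degradation. Oxidants and electrophiles modify cysteines of KEAP1, NRF2 then builds up in the nucleus, pairs with small MAF proteins and binds antioxidant response elements near its target genes. GCLC and GCLM are the catalytic and modifier subunits of glutamate-cysteine ligase, the rate-limiting step of glutathione synthesis. TXNRD1 keeps thioredoxin reduced, SRXN1 repairs overoxidised peroxiredoxins, NQO1 reduces quinones and HMOX1 degrades heme. In T cells glutathione made by this ligase buffers the oxidants that come with activation.

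The promoters of 3 of these genes are shown because a site of the table lies on each and the calls at these sites differed. The Srxn1 and Nfe2l2 sites were called higher with acetate in KO cells in every scaling, and the Gclm site was not called in that comparison. No test compared the 3 sites with each other. In KO cells treatment coincides with the prefix of the column names. In a model with a term for that prefix the Nfe2l2 site was not called (0.47, adjusted p = 0.261, limma). Each line holds the 250 bases before the RefSeq start (GRCm38.p6), 5′ to 3′ on the strand of the gene. Capitals mark the letters of an antioxidant response element core (TGACNNNGC or, chosen after the sites were seen, TGAGNNNGC) or of an AP-1 motif (TGANTCA), on either strand.
Srxn1 (chr2:152105274-152105523, plus strand): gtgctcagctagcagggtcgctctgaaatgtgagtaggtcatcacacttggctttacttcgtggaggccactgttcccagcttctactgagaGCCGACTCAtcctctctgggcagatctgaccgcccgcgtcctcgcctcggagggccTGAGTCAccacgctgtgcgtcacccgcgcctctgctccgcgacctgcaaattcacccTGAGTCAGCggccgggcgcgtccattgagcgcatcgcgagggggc
Nfe2l2 (chr2:75704664-75704913, minus strand): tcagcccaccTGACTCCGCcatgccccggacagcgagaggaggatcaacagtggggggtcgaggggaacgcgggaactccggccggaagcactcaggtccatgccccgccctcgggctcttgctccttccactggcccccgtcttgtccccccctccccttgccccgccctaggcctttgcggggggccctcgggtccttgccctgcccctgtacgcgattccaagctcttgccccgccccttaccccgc
Gclm (chr3:122245307-122245556, plus strand): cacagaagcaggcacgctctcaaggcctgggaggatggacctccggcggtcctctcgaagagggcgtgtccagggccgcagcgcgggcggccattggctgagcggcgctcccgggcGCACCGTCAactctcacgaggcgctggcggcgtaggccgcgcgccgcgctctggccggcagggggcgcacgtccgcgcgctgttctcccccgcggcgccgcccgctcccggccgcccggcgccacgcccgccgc
Windows of 300 bases that add the 50 bases after the start were searched, and RefSeq windows were found for 6 of the 8 genes. The Srxn1 window held TGAGNNNGC at bases 93 to 101 on the minus strand and at bases 206 to 214 on the plus strand. The second of these shares its first bases with an AP-1 motif at bases 206 to 212, and another AP-1 motif stood at bases 149 to 155. These lie under the Srxn1 site, which covers bases 64 to 264. The Srxn1 window also held TGACNNNGC at bases 279 to 287 on the minus strand, after the printed bases and outside the site. The Gclm window held TGACNNNGC at bases 117 to 125 on the minus strand, under its site at bases 20 to 220. The Nfe2l2 window held TGACNNNGC at bases 11 to 19 on the plus strand, outside its site, which starts at base 192. In the Txnrd1 window under a site (chr10:82858956-82859255, plus strand), TGACNNNGC stood at bases 159 to 167 on the minus strand, and the Nqo1 and Keap1 windows held none of the 3 motifs. Of 32851 RefSeq windows of the same length, 12.4% held TGACNNNGC, 17.6% held TGAGNNNGC, 27.8% held either and 7.81% held TGANTCA. Among the other motifs searched, GGGCGG stood in 35.7% of all windows, TGTGGT in 16.8% and ATTGG in 37.4%. GGGCGG was found in the Nfe2l2, Keap1, Gclm, Nqo1 and Srxn1 windows and in 1 Txnrd1 window, and TGTGGT in none of them. ATTGG was found in the Gclm window at bases 93 to 97, under its site, and in that Txnrd1 window at bases 88 to 92. A match describes these letters and is no evidence of binding.

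Loss of PDH was compared first, in untreated cells. On the deposited scale 2 of the 28 sites were higher in KO untreated than in WT untreated cells, both near Gclc, 25 were lower and 1 was not called (limma, adjusted p under 0.05 over all sites). Among all sites tested, 9.07% were called higher and 89.6% lower, so the share of lower sites was near the background. The median log2 difference was -0.90 over the 28 sites and -0.84 over all sites. With factors that centre the table, the 25 lower calls did not stay. Median-of-ratios factors left 1 lower site, total signal 1, and cyclic loess 0 (2.41% of all sites). After cyclic loess 6 of the 28 sites had an unadjusted p under 0.05, as did 7447 of all 39657 sites. Centring removes any shift common to the whole table, so these scalings cannot show whether the lower deposited values were a real loss. The 2 higher sites were called after cyclic loess, where 9.35% of all sites were higher, and in all 4 scalings, as were 9.07% of all sites, and no member site was called lower in all 4 (2.2% of all sites). A direction below is therefore given against the table's median or together with cyclic loess.

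**Figure D1:**
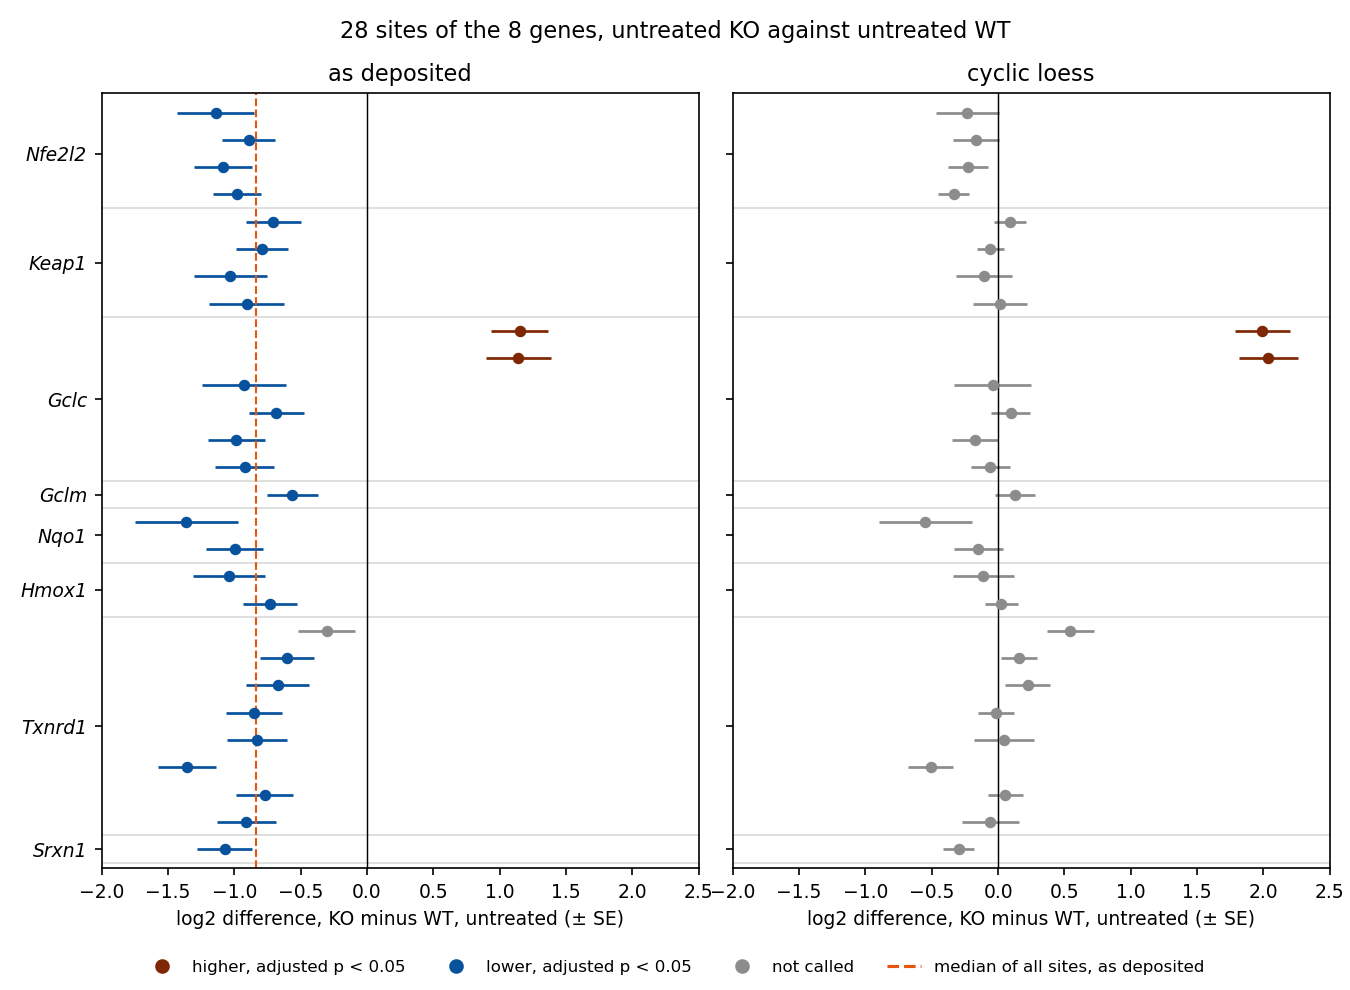
Log2 difference of each of the 28 sites, KO untreated minus WT untreated, as deposited on the left and after cyclic loess on the right, with bars of 1 SE; brown marks a higher call, blue a lower call and grey no call. As deposited, 26 sites lie left of 0, 25 of them called lower, around the dashed median of all sites at -0.84, whereas after cyclic loess only the 2 Gclc sites are called, near 2.0.

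The 2 higher sites lie next to each other on the low-coordinate side of Gclc, 669 bp apart (GRCm38). The farther one (chr9:77726261-77726461) is 28.1 kb from the gene body and the nearer one (chr9:77727131-77727331) is 27.2 kb away. No other gene of the reference table lies closer to them than Gclc, and Klhl31, the next coding gene, is 66.1 kb from the farther site. The farther site had 218, 342 and 338 normalised reads in the KO untreated libraries, against 109, 156 and 134 in the WT untreated libraries. The nearer site had 87.2, 141 and 174 in KO untreated, against 76.2, 52.2 and 48.6 in WT untreated. At both sites every KO untreated library was above every WT untreated library, although KO untreated 1 stood close to WT untreated 1 at the nearer site. The log2 difference was 1.15 ± 0.22 (SE, adjusted p = 3.02e-06, limma), or 2.22-fold, at the farther site, and 1.14 ± 0.24 (adjusted p = 2.93e-05), or 2.21-fold, at the nearer site. After cyclic loess it was 1.99 ± 0.21 and 2.04 ± 0.22. Without each of the 10 libraries in turn it stayed between 1.02 and 1.37 at the farther site and between 0.93 and 1.42 at the nearer one, and each time it was called. Within the libraries whose column names start with ATAC1 (3 KO untreated, 2 WT untreated), it was 1.17 and 1.02. Among 6 B cell marker genes, 3 had a site, and the sites of Pax5 (188 to 265 normalised reads in KO untreated, 67.4 to 99.5 in WT untreated) and Blk (149 to 252 in KO untreated, 51.2 to 78.5 in WT untreated) were higher in every KO untreated library than in any WT untreated library. Ebf1 sites were below (775 to 1105 in KO untreated, 1379 to 1753 in WT untreated), Ms4a1 and Cd79a had no site, and the whole list summed to 1112 to 1622 in KO untreated and 1557 to 1872 in WT untreated. The part of these markers in the Gclc result was not tested.

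The other 4 sites of Gclc did not follow the pair. The site of highest mean signal (chr9:77750504-77750704, 3.83 kb outside the body) had 264, 306 and 301 normalised reads in KO untreated, against 564, 372 and 483 in WT untreated. Its groups did not overlap, but the log2 difference of -0.68 ± 0.21 was smaller than the shift of the table and became 0.09 after cyclic loess. The 2 sites inside the gene body gave -0.98 and -0.92, and the site 7.88 kb outside gave -0.93. After cyclic loess these 3 lay between -0.17 and -0.04, with no call.

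The share of Gclc signal that fell on the pair does not depend on any factor per library. It was 35.2%, 44.8% and 44.0% in KO untreated, against 13.0%, 19.3% and 13.4% in WT untreated, and the groups did not overlap. The means were 41.3% ± 5.35 and 15.2% ± 3.56 (SD, n = 3 each). A two-sided exact permutation test gave p = 0.1, the smallest that 3 against 3 libraries allow. The pair was made of the Gclc sites already called higher between these same libraries. The lack of overlap and this p therefore follow in part from that choice, and they are no separate test of the pair. All 6 Gclc sites together held 156, 179 and 167 ppm (1e-06 of the total) of the nuclear signal in sites in KO untreated, against 126, 119 and 128 in WT untreated (p = 0.1, two-sided exact permutation test). This total includes the pair, so its lack of overlap also follows in part from that choice. No other member had a higher share without overlap, and such shares were not computed for genes outside the members.

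**Figure D2:**
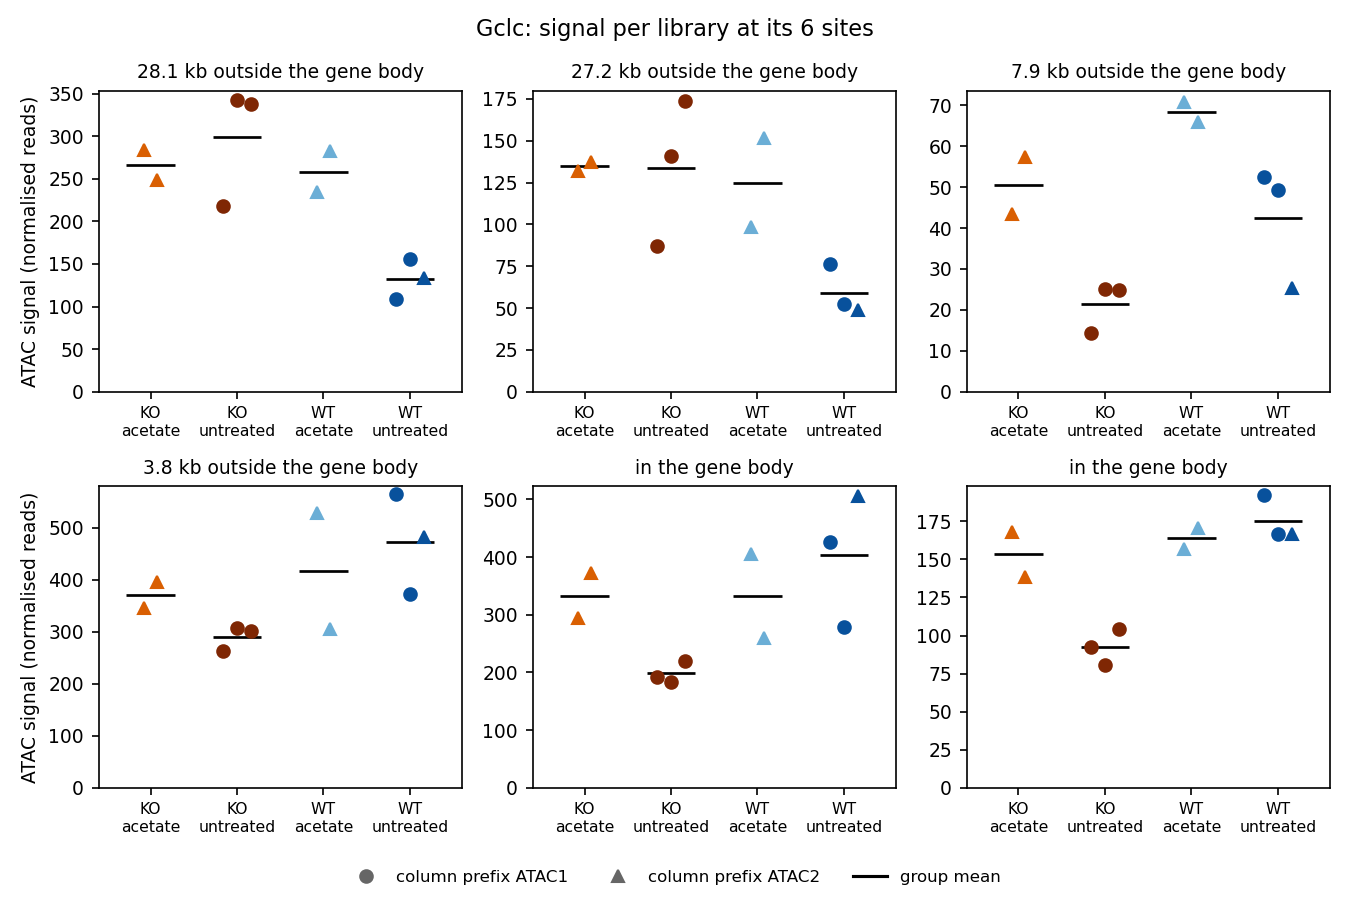
Normalised reads per library at the 6 Gclc sites, in order of coordinate, with a line at each group mean; circles and triangles give the 2 column-name prefixes. At the first 2 sites WT untreated is the low group, while at the 2 sites in the gene body KO untreated is the low group.

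Gclm, which encodes the partner subunit, had 1 site, at its start (chr3:122245326-122245526), which also overlaps the non-coding gene Gm46822. It had 470.0, 531 and 536 normalised reads in KO untreated, against 688, 554 and 1131 in WT untreated. WT untreated 4 was far above the other libraries. The log2 difference was -0.56 ± 0.19 (adjusted p = 0.00488), above the table's median, and it was -0.27 (adjusted p = 0.174) without WT untreated 4. After cyclic loess it was 0.13 ± 0.15.

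At Nfe2l2 itself, the site at the start (chr2:75704522-75704722) was the highest of the 28 by mean signal. It had 409, 551 and 519 normalised reads in KO untreated, against 922, 740.4 and 1310.2 in WT untreated, with no overlap. The log2 difference was -0.98 ± 0.18 (adjusted p = 3e-06), and after cyclic loess it was -0.33 ± 0.12 (adjusted p = 0.0841). The 3 sites further into the gene gave -1.14, -0.89 and -1.08, so all 4 lay below the table's median, and after cyclic loess they ranged from -0.33 to -0.16 with no call. As a share of the nuclear signal in sites, Nfe2l2 held 155, 166 and 148 ppm in KO untreated, against 181, 187 and 193 in WT untreated (p = 0.1, two-sided exact permutation test).

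Keap1, the inhibitor of NRF2, had no site on its promoter or in its body. Its 4 sites lie 2.02 to 7.88 kb beyond the end of the gene, toward Pde4a. The site of highest mean signal and smallest p (chr9:21225236-21225436) had 287, 332 and 370.1 normalised reads in KO untreated, against 631, 477 and 606 in WT untreated. The log2 difference there was -0.79 ± 0.20 (adjusted p = 0.00021) and the other 3 ranged from -1.03 to -0.71. After cyclic loess the 4 sites lay between -0.10 and 0.09, none of them called.

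Txnrd1 had sites on both sides of the table's median. The site with the smallest p, 2.08 kb beyond the gene (chr10:82899800-82900000), had 106, 82.2 and 119 normalised reads in KO untreated, against 336, 225 and 233 in WT untreated. Its log2 difference was -1.35 ± 0.22 (adjusted p = 1.51e-07), and it was the member site still called lower with median-of-ratios factors (-0.55, adjusted p = 0.0394) and with total signal (-0.62, adjusted p = 0.0232). After cyclic loess it was -0.51 (adjusted p = 0.0668). The site of highest mean signal, at a start inside the gene (chr10:82859046-82859246), had 296, 328 and 378 in KO untreated, against 636, 417 and 483 in WT untreated, a log2 difference of -0.60 ± 0.20. The site that was not called lies inside the gene (chr10:82851864-82852064) and overlaps the non-coding gene Gm38560. It had 100.4, 127 and 151 normalised reads in KO untreated, against 165, 179 and 124 in WT untreated, so the groups overlapped. Its log2 difference was -0.30 ± 0.22 (adjusted p = 0.165), and 0.54 ± 0.18 after cyclic loess (adjusted p = 0.0601). The other 5 Txnrd1 sites ranged from -0.91 to -0.67 and, after cyclic loess, from -0.06 to 0.22.

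The Srxn1 site at the start (chr2:152105337-152105537) had 195, 204 and 228 normalised reads in KO untreated, against 471, 365 and 494 in WT untreated. The log2 difference was -1.07 ± 0.21 (adjusted p = 4.57e-06), and -0.30 ± 0.12 after cyclic loess (adjusted p = 0.137). Its share was 35.0, 33.8 and 32.7 ppm in KO untreated, against 41.9, 40.4 and 46.5 in WT untreated, with no overlap (p = 0.1, two-sided exact permutation test).

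The Nqo1 site at the start (chr8:107403067-107403267) had 98.2, 118 and 102 normalised reads in KO untreated, against 206, 249 and 185 in WT untreated, a log2 difference of -1.0 ± 0.22 that was -0.15 after cyclic loess. The second Nqo1 site, just inside the gene, held the fewest reads of all 28 and gave -1.36 ± 0.39. At Hmox1, the site with the smallest p lies 9.49 kb outside the gene (chr8:75083931-75084131). It had 31.8, 32.7 and 43.7 normalised reads in KO untreated, against 72.4, 57.3 and 99.5 in WT untreated, a log2 difference of -1.04 ± 0.27. The Hmox1 site of higher signal, overlapping the low-coordinate end of the annotated body (chr8:75093497-75093697), had 267, 274 and 399.6 in KO untreated, against 601, 458 and 488 in WT untreated (-0.73 ± 0.20). After cyclic loess the 2 Hmox1 sites gave -0.11 and 0.03. Over all 28 sites together, the share of nuclear signal was 801 to 837 ppm in KO untreated and 804 to 844 in WT untreated (p = 0.5, two-sided exact permutation test).

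Acetate, another source of acetyl-CoA, was then compared with no treatment in KO cells. On the deposited scale 20 of the 28 sites were higher with acetate and none was lower (limma). Among all sites 54.6% were called higher and 5.94% lower. The same 20 had an unadjusted p under 0.05, as did 25991 of all 39657 sites. The median log2 difference was 0.73 over the members and 0.61 over all sites. After cyclic loess 2 sites were higher (11.5% of all sites) and 1 was lower (16.7%). The libraries of KO cells with acetate all have column names that start with ATAC2 and those of untreated KO cells all start with ATAC1, so treatment and column-name prefix cannot be told apart within KO cells.

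The 2 sites called higher in all 4 scalings (10.5% of all sites) were the starts of Nfe2l2 and Srxn1, the promoters printed above. The Nfe2l2 site had 1129.6 and 1023 normalised reads in KO with acetate, against 409, 551 and 519 in KO untreated. The log2 difference was 1.13 ± 0.20 (adjusted p = 1.32e-06), and 0.74 ± 0.13 after cyclic loess (adjusted p = 0.000477). The Srxn1 site had 523 and 492 in KO with acetate, against 195, 204 and 228 in KO untreated. Its log2 difference was 1.28 ± 0.23 (adjusted p = 1.21e-06), and 0.71 ± 0.13 after cyclic loess (adjusted p = 0.000589). In a model with a term for the prefix, estimated from WT untreated libraries only, the Srxn1 difference was 1.03 (adjusted p = 0.0199) and the Nfe2l2 difference 0.47 (adjusted p = 0.261). WT untreated 4, the WT untreated library with the ATAC2 prefix, was also the highest of its group at both sites.

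The Gclc pair did not take part in that shift. The farther site had 284 and 249 normalised reads in KO with acetate, against 218, 342 and 338 in KO untreated, and the nearer had 132 and 137, against 87.2, 141 and 174. Both sets of groups overlapped. The log2 differences were -0.14 ± 0.24 and 0.06 ± 0.27, below the table's median of 0.61. After cyclic loess the farther site was called lower (-0.79 ± 0.23, adjusted p = 0.0169), and the nearer was not (-0.65 ± 0.25, adjusted p = 0.0601). That lower call was lost without KO untreated 2 (adjusted p = 0.0728), KO acetate 1 (0.1) or KO acetate 3 (0.106). The pair held 32.8% and 28.6% of the Gclc signal in KO with acetate, against 35.2%, 44.8% and 44.0% in KO untreated (p = 0.2, two-sided exact permutation test, the smallest for 2 against 3 libraries). Among the other sites, the distant Hmox1 site had the largest deposited difference: it had 98.0 and 101 normalised reads in KO with acetate, against 31.8, 32.7 and 43.7 in KO untreated (1.45 ± 0.30; 0.69 after cyclic loess, adjusted p = 0.0519).

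**Figure D3:**
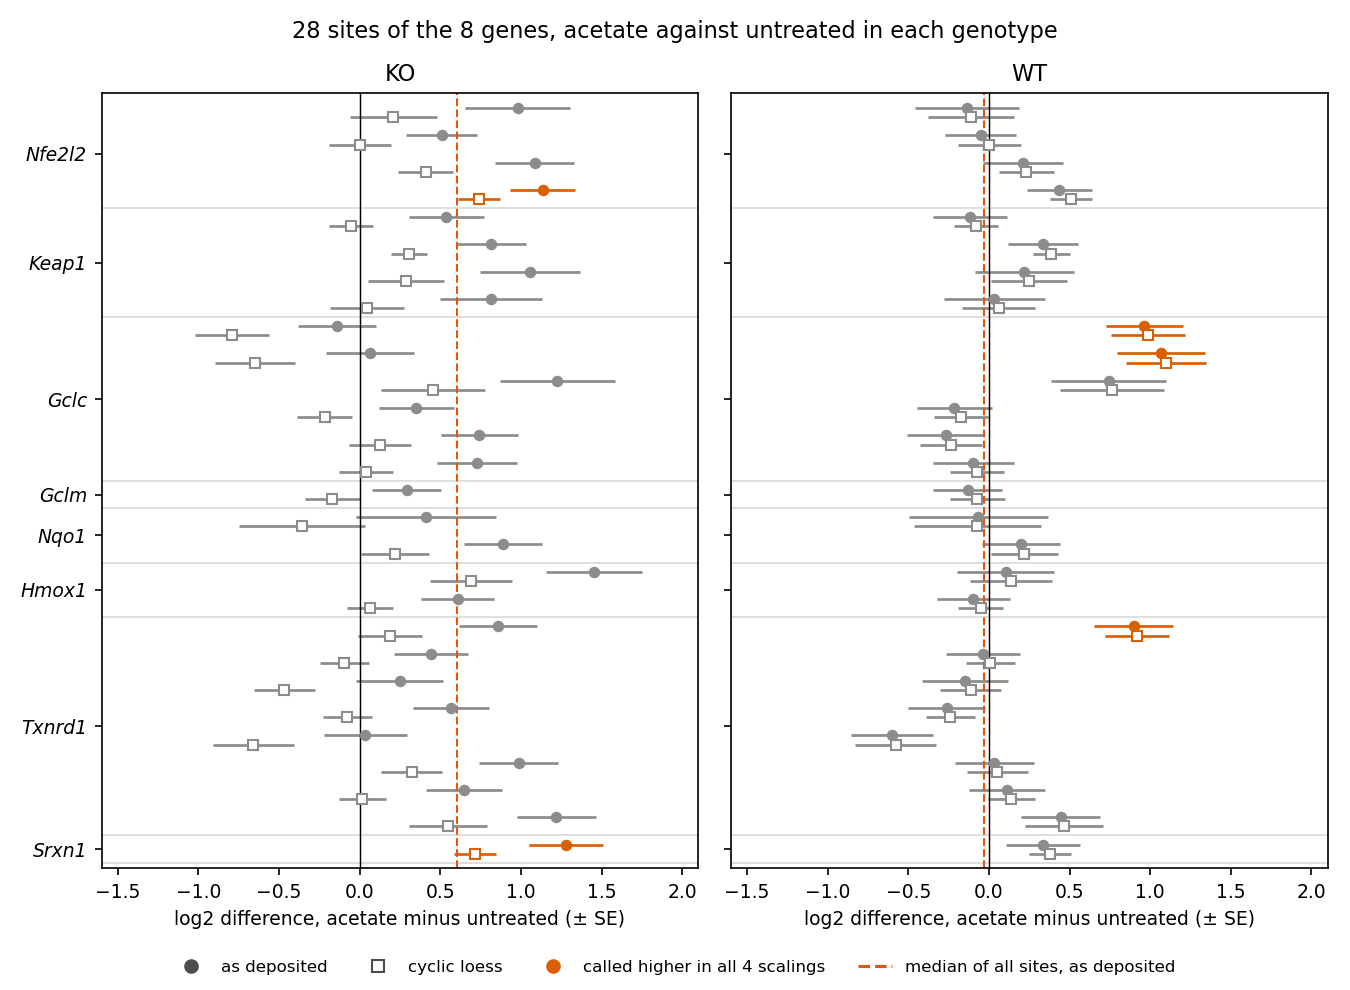
Log2 difference of each of the 28 sites, acetate minus untreated, in KO cells on the left and WT cells on the right, with bars of 1 SE; filled circles are as deposited, open squares are after cyclic loess, and orange marks sites called higher in all 4 scalings. In KO cells these are the starts of Nfe2l2 and Srxn1, and in WT cells the Gclc pair and 1 Txnrd1 site.

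In WT cells the table's median moved by only -0.03 with acetate, and the 3 sites called higher were called in all 4 scalings (2.91% of all sites as deposited, 2.55% in all 4). No member site was called lower (3.02% of all sites). An unadjusted p under 0.05 was found at 6 of the 28, and at 7172 of all 39657 sites. The farther Gclc site had 234 and 283 normalised reads in WT with acetate, against 109, 156 and 134 in WT untreated. The nearer one had 98.5 and 152 in WT with acetate, against 76.2, 52.2 and 48.6 in WT untreated. The Txnrd1 site inside the gene, the one not called between genotypes, had 271 and 305 in WT with acetate, against 165, 179 and 124 in WT untreated. At all 3 sites both acetate libraries were above every untreated library. The log2 differences were 0.96 ± 0.24 (adjusted p = 0.00513), 1.07 ± 0.27 (adjusted p = 0.00663) and 0.90 ± 0.24 (adjusted p = 0.0117). In the libraries with the ATAC2 prefix alone (2 WT with acetate, 1 WT untreated) they were 0.94, 1.31 and 1.21.

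These calls rest on few libraries. One of the 3 was left without WT acetate 1 (132 sites of the table called higher), and none without WT acetate 2 (335 sites) or in a model of the 2 groups alone (369 sites). Without WT acetate 2 the adjusted p was 0.151 at the farther Gclc site, 0.306 at the nearer and 0.182 at the Txnrd1 site. The Srxn1 site (0.34 ± 0.23, adjusted p = 0.484) was not called. The Nfe2l2 start had 1520.0 and 1119 normalised reads in WT with acetate, against 922, 740.4 and 1310.2 in WT untreated. These groups overlapped, with a log2 difference of 0.44 ± 0.20 (adjusted p = 0.216) and a call after cyclic loess (0.51 ± 0.13, adjusted p = 0.0248). After cyclic loess 1 Keap1 site was also higher (chr9:21225236-21225436, 0.39 ± 0.11, adjusted p = 0.0442), so 5 sites were called (4.43% of all sites).

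**Figure D4:**
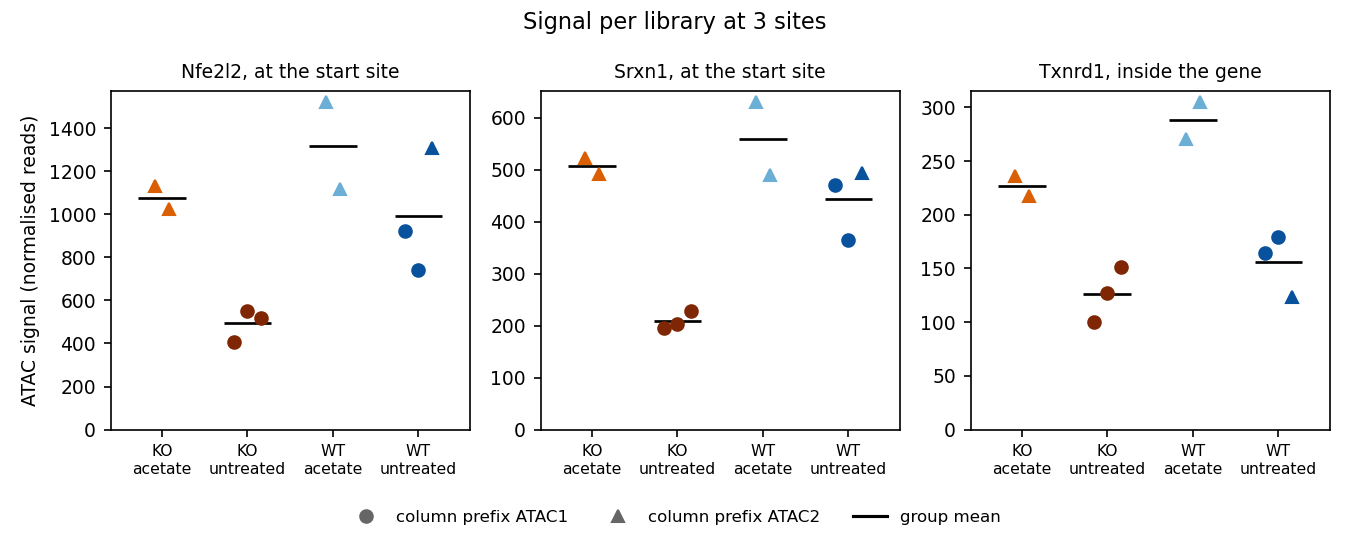
Normalised reads per library at the start of Nfe2l2, at the start of Srxn1 and at the Txnrd1 site inside the gene, with a line at each group mean and the column-name prefix by symbol. KO untreated is the low group at the first 2, and both acetate groups lie above both untreated groups at the Txnrd1 site.

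With acetate in both genotypes, no member site was called between KO and WT by limma. None of the 28 had an unadjusted p under 0.05 in any of the 4 scalings, where 709 to 914 of all 39657 sites had one. Among all sites 0.0227% were called higher and 0.0% lower. The median log2 difference was -0.14 over the members and -0.15 over all sites. The Gclc pair had 284 and 249 normalised reads at the farther site in KO with acetate, against 234 and 283 in WT with acetate, and 132 and 137 at the nearer site, against 98.5 and 152. The groups overlapped at both, and the differences of 0.05 ± 0.26 and 0.14 ± 0.30 were smaller than their errors. The most negative member was the weak Nqo1 site, with 23.9 and 12.1 in KO with acetate, against 33.8 and 30.9 in WT with acetate (-0.89 ± 0.47, adjusted p = 0.993). With 2 libraries a group, no exact test of a single value can go below p = 0.333.

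KO cells with acetate were also set against WT untreated cells, a comparison that shares its libraries with those above. The Gclc pair was higher in all 4 scalings (1.01 ± 0.24, adjusted p = 0.00216, and 1.20 ± 0.27, adjusted p = 0.00123), where 2.09% of all sites were called higher as deposited and 1.96% in all 4. A Txnrd1 site inside the gene (chr10:82887446-82887646) was lower on the deposited scale (5.74% of all sites), with 91.2 and 121 normalised reads in KO with acetate, against 172, 181 and 196 in WT untreated (-0.79 ± 0.25, adjusted p = 0.0336). That call was lost in each of the other 3 scalings (adjusted p = 0.146 to 0.16). Those 3 scalings each gained a higher call instead, at the Txnrd1 site that was higher with acetate in WT cells (chr10:82851864-82852064). It had 236 and 217 normalised reads in KO with acetate, against 165, 179 and 124 in WT untreated. Its log2 difference was 0.55 ± 0.24 as deposited (adjusted p = 0.156) and 0.73 ± 0.20 after cyclic loess (adjusted p = 0.0322), where 4.28% of all sites were higher. The farther Gclc site lost its call without KO acetate 1 (adjusted p = 0.0923) and the nearer without KO acetate 3 (adjusted p = 0.0518).

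**Figure D5:**
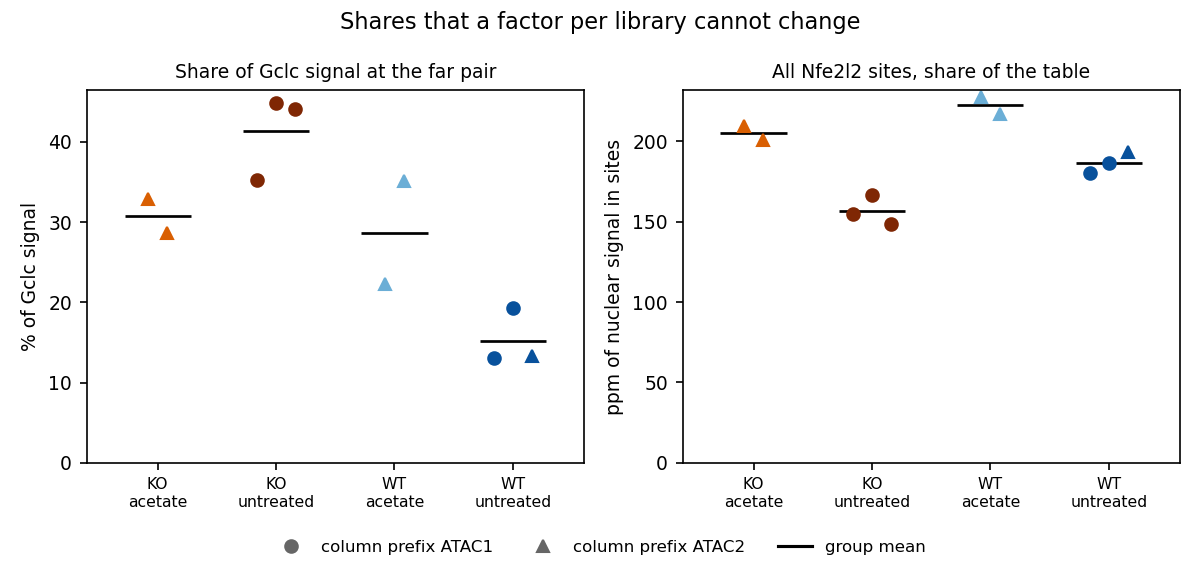
Left, the percentage of the signal of all 6 Gclc sites that fell on the far pair in each library; right, the signal of all 4 Nfe2l2 sites in ppm of the nuclear signal in sites. Lines are group means. By these means KO untreated is highest on the left (libraries at 35.2% to 44.8%) and lowest on the right (148 to 166). On the left the lowest KO untreated library lies close to WT acetate 2.

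Whether the response to acetate differed between genotypes was tested by the interaction. The Gclc pair was lower in it (-1.11 ± 0.34, adjusted p = 0.0224, and -1.0 ± 0.38, adjusted p = 0.047). On the deposited scale this means that acetate moved the pair less in KO than in WT cells. Among all sites 3.61% were called lower, and the median was 0.67. The pair was called lower in all 4 scalings (3.52% of all sites), with -1.78 and -1.75 after cyclic loess, where 7.36% of all sites were lower. After cyclic loess acetate moved the pair down in KO cells (-0.79 and -0.65) and up in WT cells (0.99 and 1.10). The interaction is the KO minus WT difference with acetate, less that difference in untreated cells, by which the pair was chosen. It is therefore no separate test of the pair. Treatment and column-name prefix coincide in KO cells, so the interaction carries that limit too. With a prefix term it was -1.12 and -0.88. On the deposited scale the farther site lost its call without 5 of the 10 libraries and the nearer without 7, whereas after cyclic loess both kept it without each of them. On the deposited scale 4 sites were higher (19.5% of all sites), at Gclc, Hmox1, Txnrd1 and Srxn1, with differences of 0.94 to 1.35, and none of them was called in another scaling.

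A wider list of 70 other antioxidant genes was read in the same way. They comprise relatives, partners and repressors of NRF2, glutathione and thioredoxin enzymes, peroxidases, superoxide dismutases, NADPH-producing enzymes, ferritins and exporters. Of these, 57 had a site, 217 sites in all. In untreated cells 6 were higher and 211 lower in KO than in WT (median -0.81), which is 2.76% and 97.2% of the list, against 9.07% and 89.6% of all sites. After cyclic loess 6 were higher and 4 lower, or 2.76% and 1.84%, against 9.35% and 2.41% of all sites. The 4 higher sites of smallest p, 1 per gene, lay at Sod3, the extracellular superoxide dismutase (2.07 ± 0.36), Abcc4, an exporter (1.77 ± 0.35), Aifm2, which reduces coenzyme Q (1.41 ± 0.31, site starting at 61729254), and Sesn1, a stress-induced sestrin (1.18 ± 0.30). Each was called in all 4 scalings, where 6 of the 217 sites were higher and 3 lower, against 9.07% and 2.2% of all sites. Their signal was low. In that order the mean normalised reads were 51.1, 73.5, 57.0 and 81.4 in KO untreated, against 11.2, 21.5, 20.2 and 35.1 in WT untreated. Lower in all 4 scalings were sites at Slc3a2, the heavy chain of the cystine importer (-1.52 ± 0.21), Bach2, a repressor that pairs with small MAF proteins (-1.42 ± 0.22, site starting at 32361739), and Rbx1, a subunit of the ligase that takes NRF2 from KEAP1 (-1.83 ± 0.32). The Rbx1 site was weak, with means of 15.2 normalised reads in KO untreated and 56.9 in WT untreated. A site at Bach1, which represses Hmox1, was lower as deposited (-1.19 ± 0.20) and after cyclic loess (-0.44, adjusted p = 0.019), but not in all 4 scalings.

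With acetate in KO cells 113 of the 217 sites were higher and 4 lower (median 0.58), and 21 were higher and 19 lower after cyclic loess. As deposited these are 52.1% and 1.84% of the list, against 54.6% and 5.94% of all sites, and after cyclic loess 9.68% and 8.76%, against 11.5% and 16.7%. The Bach1 and Bach2 sites that were lower in untreated KO cells were higher with acetate (1.46 ± 0.22 and 1.51 ± 0.24), as were another Aifm2 site (starting at 61715187, 1.92 ± 0.27) and a site at Nfe2, a relative of NRF2 (1.61 ± 0.24). The Abcc4 and Sesn1 sites were lower with acetate (-2.06 ± 0.39 and -1.11 ± 0.34), as was a second Bach2 site (starting at 32502302, -1.27 ± 0.25). Each of these 7 was called in all 4 scalings, where 17 of the 217 sites were higher and 4 lower, against 10.5% and 5.94% of all sites. The 2 comparisons share the KO untreated libraries.

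In WT cells acetate gave 4 higher and 3 lower sites of the list, 1.84% and 1.38%, against 2.91% and 3.02% of all sites. Aifm2 (site at 61729254, 1.48 ± 0.34), Nfe2 (0.95 ± 0.24) and Sod3 (1.34 ± 0.41) were higher in all 4 scalings, and another Bach2 site, starting at 32291397, was lower in all 4 (-0.74 ± 0.20). In all 4 scalings 4 of the 217 sites were higher and 2 lower, against 1013 and 953 of all 39657 sites. A site at Fth1, the ferritin heavy chain, was lower as deposited (-1.12 ± 0.32) but not after cyclic loess. In KO with acetate against WT untreated 3 sites were higher, at Aifm2, Nfe2 and Sod3, and 7 were lower, or 1.38% and 3.23% of the list, against 2.09% and 5.74% of all sites. The lower site of smallest p was the Bach2 site at 32291397, called in all 4 scalings (-1.0 ± 0.20, adjusted p = 0.000243). Calls in all 4 scalings were made at 3 higher and 3 lower sites of the list, against 777 and 1098 of all 39657 sites. Sites at Txnip (-0.96 ± 0.25), Fth1 (-1.24 ± 0.32) and Blvra (-0.87 ± 0.26) were lower as deposited but not in all 4 scalings. Between KO and WT with acetate limma called none of the 217, and 2 had an unadjusted p under 0.05, against 914 of all 39657 sites. The interaction gave 35 higher and 4 lower sites, 16.1% and 1.84% of the list, against 19.5% and 3.61% of all sites. After cyclic loess it gave 1 and 5, or 0.46% and 2.30%, against 0.139% and 7.36%. The 4 lower as deposited were at Abcc4 (-2.22 ± 0.55), Sod3 (-2.18 ± 0.58), Aifm2 (site at 61729254, -1.52 ± 0.49) and Bach2 (the second site, -1.07 ± 0.35).

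The mean profile of the 28 sites over the 10 libraries, after cyclic loess, was set against that of 4632 genes with at least 3 sites each. The 5 most alike were Nkd2 (r = 0.95), Lypd6b (0.95), Bcar1 (0.93), Cobll1 (0.92) and Dkk3 (0.92), as a description only. The libraries differ in depth and column-name prefix, and the part of these in the likeness was not tested.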

How the data were processed

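ATAC-seq was made with the Omni-ATAC protocol, per the labels' protocols. The deposited table gives, per site and library, a signal value that the authors made on GRCm38. Within a tolerance of 0.001 reads all values were whole multiples of 1 step per library, so each library's signal is its reads scaled by a single factor, and how it was set is not given in the sources. Dividing by that step gave reads, used for depth only. The design's alternative of a count test was not run. The tools named in the submitters' processing notes included deepTools 3.5.1, DiffBind 3.6.1 with DESeq and DESeq2, Genrich, and BWA 0.7.16a, FastQC 0.11.5 and Picard 2.10.9, with no role given.

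R 4.3.3 and limma 3.58.1, with its trend and robust options, fitted 4 group means to log2(value + 1) over the 10 libraries, and log2 differences are on that scale. Calls needed a p below 0.05 after Benjamini-Hochberg adjustment across the 39657 sites. The median-of-ratios, total signal and cyclic loess scalings were run beside the deposited one, with 2 mitochondrial sites left out of total signal. Alternatives were a pseudocount of 5, a filter on a mean under 20, models of 2 groups, without trend, with a replicate block or a prefix term, the libraries of 1 prefix, each library left out, and sites within 5 kb. The model was tested on simulated data. Exact permutation tests, two-sided, compared shares between groups. The columns WT 4 and KO acetate 3 were placed by group, as no title has their number. Tables were made in Python 3.11.15 (pandas 2.3.3, numpy 2.4.6), tests of shares with scipy 1.17.1 and figures with matplotlib 3.10.9.

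Per-library values are given for the site of highest mean signal and the site of smallest adjusted p of each gene in untreated cells, and for sites called against the rest of their gene. From the wider list up to 4 sites per direction and comparison were named, 1 per gene. The 8 genes and the lists were chosen with earlier results of these data known. Gene bodies and promoters came from RefSeq (GRCm38.p6).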

Additional observations from a re-analysis of the deposited data

Results flagged for a closer look

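At 6 of the 28 sites the response to acetate differed between KO and WT cells by limma's test of that difference on the deposited scale. The 2 far Gclc sites responded less in KO cells, with a difference of -1.11 at chr9:77726261-77726461 and -1.0 at chr9:77727131-77727331. The Gclc site at chr9:77754556-77754756 (1.01), the distant Hmox1 site (1.35), the Txnrd1 site at chr10:82899800-82900000 (0.95) and the Srxn1 site (0.94) responded more. Over all sites the median of this difference was 0.67. The 2 far Gclc sites were called in all 4 scalings and the other 4 in the deposited one alone. The 2 far sites were chosen by their call in untreated cells, which enters this difference, so it is no separate test of them. No group held 4 or more libraries, so single libraries were not screened for outlying values.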

How the results depend on the processing

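The scaling decided most calls between untreated KO and WT cells. The 27 called member sites became 3 with median-of-ratios factors, 3 with total signal and 2 with cyclic loess, and the 25 lower ones 1, 1 and 0. The 217 called sites of the wider list became 13, 17 and 10, counting both directions. The table's median was -0.04, -0.11 and 0.00 in these, against -0.84 as deposited (log2). In the same order, some site differences changed sign. They became 0.095, 0.025 and 0.088 at the Keap1 site starting at 21221652, 0.12, 0.049 and 0.094 at the Gclc site at 77750504, and 0.24, 0.17 and 0.13 at Gclm. They became 0.070, 0.00017 and 0.025 at the Hmox1 site at 75093497. At Txnrd1 they became 0.49, 0.42 and 0.54 at 82851864, 0.20, 0.13 and 0.15 at 82859046, and 0.12, 0.054 and 0.22 at 82859672. With median-of-ratios factors and cyclic loess, the Txnrd1 site at 82901526 became 0.030 and 0.053. With cyclic loess alone, the Keap1 site at 21227510 became 0.012 and the Txnrd1 site at 82887446 became 0.043, and with median-of-ratios factors alone the Keap1 site at 21225236 became 0.013.

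For acetate in KO cells the 20 called sites became 5, 6 and 3 under those scalings and 8 with a prefix term. The nearer Gclc site turned to -0.55, -0.47 and -0.65. For acetate in WT cells 3 sites became 5 with cyclic loess, 5 with a prefix term, 5 with the ATAC2 libraries alone, 0 with 2 groups alone and 1 within 5 kb of the gene. For KO with acetate against WT untreated, 3 became 1 within 5 kb. The 6 interaction calls became 2 in each other scaling, 3 without trend, 10 with a prefix term and 3 within 5 kb. Where no share of all sites is given above, these counts describe how calls depend on the fit. They are not set against the background.

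With each library left out, called sites ranged from 26 to 27 for KO against WT untreated and from 11 to 21 for acetate in KO (11 without KO acetate 1, 12 without KO acetate 3). They ranged from 0 to 4 for acetate in WT, from 1 to 4 for KO with acetate against WT untreated (1 without either KO acetate library), and from 0 to 14 for the interaction. The interaction had 0 calls without KO acetate 1, KO untreated 2 or WT acetate 2. Between KO and WT with acetate, the farther Gclc site ranged from -0.090 to 0.18 and the nearer from -0.17 to 0.45, or from -0.021 to 0.44 and from -0.058 to 0.62 after cyclic loess. For acetate in KO the nearer site ranged from -0.22 to 0.28. The difference in the pair's share of Gclc signal, KO minus WT, ranged from 24.4 to 29.2 percentage points untreated and from -4.44 to 8.49 with acetate. The gap in the share of nuclear signal ranged from 36.8 to 48.0 ppm for Gclc, from -35.2 to -26.2 for Nfe2l2 and from -10.4 to -7.32 for Srxn1.

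Whether replicate numbers pair the libraries could not be settled, as deviations within a group of 2 libraries mirror each other. Of 10 pairs with the same number, 2 had correlated deviations over 0.1 (r from -0.09 to 0.26). The 27 pairs with other numbers had r from -0.26 to 0.14. A replicate block left 2 higher and 25 lower sites untreated, 16 for acetate in KO, 4 for acetate in WT and 3 in the interaction. The count test on recovered reads was not run. Except where given above, the pseudocount, filter and trend alternatives left each count within 1.5 times of its value. Depth limits the weak sites most, with 8 reads at the lowest, and 2 libraries a group limit each acetate comparison. The cyclic loess values with a library left out and the TGAGNNNGC form were chosen after seeing the data.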
